A study of Drosophila melanogaster with 16 samples.

Results

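Larval Drosophila trachea is a chitin-lined epithelial tube, and the genes described here build that lining. They are the chitin synthase gene kkv, the precursor enzyme gene mmy, the chitin assembly genes knk and rtv, the chitin deacetylase genes verm, serp, Cda4 and Cda5, and the chitin-binding protein genes Gasp and obst-A. These 10 genes were taken by symbol, by a rule that used no measured value although earlier results of these data were known, from the 17559 genes of the deposited tables, and all 10 were found. The RNA came from isolated larval trachea of the standard strain Canton S, without any transgene or mutation named, in 4 groups of 4 libraries: females kept in air, females given smoke, males kept in air and males given smoke. Smoke was mainstream smoke of 3R4F reference cigarettes, given at 4 puffs per min for 60 min. The groups shared strain and tissue and differed in sex and in smoke or air. The labels give no larval age, no time between exposure and collection and no number of animals per library, and they do not say that replicates came from separate animals, so p-values measure the spread between libraries, which may be technical.

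Chitin is a polymer of N-acetylglucosamine. The hexosamine pathway makes the sugar, Mummy (mmy) activates it as UDP-N-acetylglucosamine, and the membrane enzyme Krotzkopf verkehrt (kkv) links it into chains that are pushed out through the apical membrane. Knickkopf (knk) and Retroactive (rtv) are needed to order the new chains. Vermiform (verm) and Serpentine (serp) are secreted into the lumen, where deacetylation of chitin limits tube length in the embryo. Gasp and Obstructor-A are secreted proteins that bind chitin through peritrophin-type domains. In the larva the tracheal lining is shed and rebuilt at every moult under control of the steroid ecdysone.

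After smoke, 2 of the 10 genes rose in females, Cda5 and Gasp, and none fell. In males verm rose and Cda5 fell. Cda5 was thus called in both sexes in opposite directions, at 2.12-fold of the air level in females (fold from the log2 change) and at 0.218 of it in males. The calls are from limma at a Benjamini-Hochberg adjusted p of 0.05 over all genes tested in that sex. Of all genes tested, 10.9% were higher and 7.09% lower in females, and 8.89% were higher and 4.64% lower in males, so 2 of 10 and 1 of 10 members lie close to the background. No member fell in females at an unadjusted p under 0.05 either, or by edgeR or DESeq2. Calls in both sexes with opposite signs were made for 0.72% of the 8606 genes tested in both, against 1 of 10 members. The change differed between the sexes for 2 of 10 members, Cda5 and Gasp, against 2.17% of all genes. The Gasp difference passed in 10 of 29 alternative settings, the Cda5 difference in 28. Smoke and air values did not overlap for 4 of 10 members in females, against 24.5% of all genes, and for 2 of 10 in males, against 22.5%. The median log2 change of the 10 genes was 0.24 in females and 0.10 in males, against -0.02 and -0.01 for all genes tested. In the authors' deposited table, at an adjusted p of 0.05, 4 members were higher in females (Cda5, Gasp, verm and serp), against 11.6% of the genes with an adjusted p there, and none was lower, against 9.64%. In males that table had verm and serp higher, against 10.1% of genes, and Cda5 lower, against 9.47%.

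**Figure D1:**
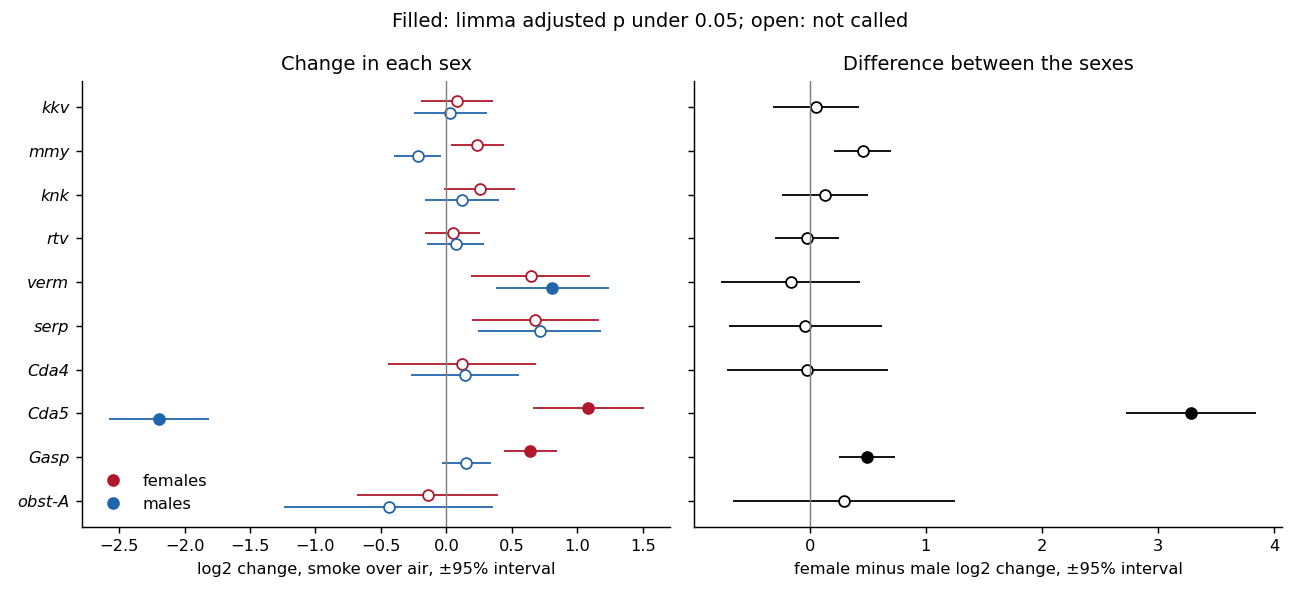
Log2 change of the 10 genes, from air to smoke (log2 of value + 1), in females (red) and males (blue), and the female minus male difference (black), with 95% intervals from limma; filled points passed an adjusted p of 0.05. Cda5 lies at 1.08 in females and -2.19 in males, while verm and serp lie between 0.65 and 0.81 in both sexes.

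Values below are normalised read counts, that is reads per gene divided by a factor for the library, with females and males scaled in separate tables. Levels of the sexes are therefore set side by side without a test. Libraries held 15036560 to 23434521 reads on genes, and a member had 226 to 79798 reads in a library. Counting error weighs more for the members with fewer reads, and its part in the spread between libraries was not tested. Replicates 1 and 2 had 19367755 to 23434521 reads and replicates 3 and 4 had 15036560 to 19431772, and the column names of these pairs differ in style, so changes are also given within each pair. Tracheal identity was checked with 5 genes. Of these trh and vvl were abundant in every group (vvl 5028 to 6559, trh 9110.3 to 15193 on average), kni and knrl were present, and rib stayed at or under 5.85 in every library. Among genes called in females, 60.7% were higher as deposited, 50.4% when libraries were scaled to the same upper quartile and 38.2% when scaled to the same total. In males these shares were 65.7%, 62.4% and 48.7%, and for the sex difference 92%, 83.5% and 90%. In these bulk samples fewer cells of a type and less RNA per cell cannot be told apart.

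Per kb of the longest annotated transcript, the levels of the wall genes ran from 18773 for verm to 137 for Cda5 in female air. There verm had 18773 ± 3648 normalised reads per kb (SD, n = 4) and ranked 107th of 17253 genes with a length, and serp had 12344 ± 2728 and ranked 137th. Gasp (7620.2 ± 769) and obst-A (5795 ± 2186) came next, and the chitin synthase kkv stood at 1628 ± 203. The genes rtv, mmy and Cda4 lay close together at 1025 ± 108, 1017 ± 112 and 996 ± 291 per kb, and knk (325 ± 53.9) and Cda5 (137 ± 31.4) were lowest. The genes verm, serp, Gasp and obst-A stood above the synthase gene in all 4 groups, and Cda4 and Cda5 stood below it, Cda5 lowest of all. In female air the ranges of verm and serp, of serp and Gasp, of Gasp and obst-A and of rtv, mmy and Cda4 overlapped between neighbours, while obst-A, kkv and rtv were apart from each other, and so were Cda4, knk and Cda5. Male smoke was the group where verm, serp, Gasp, obst-A and kkv were all apart from their neighbours. Together the 10 genes took 0.62% ± 0.08 of all reads in female air, 0.825% ± 0.101 in female smoke, 0.698% ± 0.117 in male air and 0.947% ± 0.125 in male smoke, most of it from verm and serp. The longest transcript of Cda5 has 7266 bases and the gene has 8 annotated transcripts, so its level per kb depends on which of them the trachea uses.

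**Figure D2:**
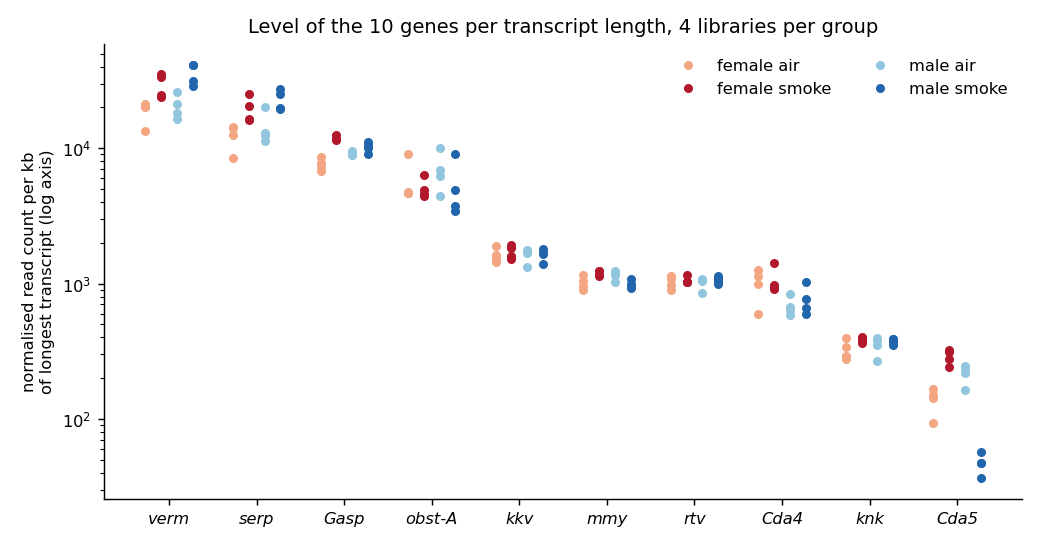
Normalised read count per kb of the longest annotated transcript (log axis) for the 10 genes, 1 point per library, coloured by group. The genes verm and serp lie highest in all groups and Cda5 lowest, at 46.9 per kb on average in male smoke.

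The chitin synthase gene was not called in either sex. This gene, kkv (FBgn0001311, chromosome arm 3R), stood at 8506, 7932, 10544 and 8998 in female air replicates 1 to 4 and at 8844, 8320.4, 10165 and 10732 in female smoke. In males it stood at 9489, 7336, 9217 and 9805 in air and at 9122, 7693, 9875 and 9852 in smoke. Smoke and air overlapped in both sexes. The log2 change of kkv was 0.08 ± 0.12 (SE) in females, with a 95% interval of -0.19 to 0.35, and 0.03 ± 0.12 in males, with an interval of -0.25 to 0.31 (limma adjusted p = 0.685 and 0.899). Changes within these intervals are not excluded with 4 libraries per group.

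The precursor enzyme gene mmy (FBgn0259749, arm 2L) had a positive change in females and a negative change in males, and passed the test in neither. Its values were 1861, 2156, 2394 and 1983 in female air and 2334, 2404, 2544 and 2570.4 in female smoke, where 3 smoke libraries lay above all air libraries. The male values were 2433, 2136, 2396 and 2562 in air and 2033, 1905, 2027 and 2213 in smoke, where 3 smoke libraries lay below all air libraries. The log2 change was 0.24 ± 0.09 in females (limma adjusted p = 0.104) and -0.22 ± 0.08 in males (limma adjusted p = 0.0985). The difference between the sexes was 0.46 ± 0.11 and also missed the threshold (limma adjusted p = 0.0591). Within replicates 1 and 2 this difference was 0.45 and within replicates 3 and 4 it was 0.46. The difference passed in 6 of 29 alternative settings, among them DESeq2 (0.00491), scaling to the same total (0.0376), a term for the naming style (0.0145), and the fits without female air 3 (0.0191) or male air 2 (0.0384). The female change passed in 1 of 21 alternative settings, without female air 3 (0.0482). The male change passed in 4 of 21, among them DESeq2, the replicate block and the naming-style term. The ratio of kkv to mmy moved from 4.30 ± 0.42 with air to 3.86 ± 0.31 with smoke in females, and from 3.75 ± 0.21 in male air to 4.46 ± 0.34 in male smoke, where the male groups did not overlap.

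Upstream of mmy, none of 6 hexosamine pathway genes was called in either sex by limma, edgeR or DESeq2. At an unadjusted p under 0.05, 1 was higher and 1 lower in females and 1 was lower in males. The list median log2 change was 0.17 in females and 0.11 in males. Gfat1, whose enzyme commits fructose-6-phosphate to the pathway, stood at 7064 ± 955 (SD, n = 4) with air and 7930.1 ± 479 with smoke in females, and at 7067 ± 587 with air and 7546 ± 998 with smoke in males. The mutase gene nst went from 1842 ± 154 in air to 2075 ± 136 in smoke in females, against 1892 ± 60.3 and 2069 ± 169 in males.

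Of the chitin assembly genes, knk (FBgn0001321, arm 3R) encodes a membrane-anchored protein that protects and orders chitin. It stood at 909, 1056, 736 and 779 in female air and at 1034, 1081, 1029 and 965 in female smoke. Male libraries had 1049.8, 1022, 721 and 934 in air and at 1045, 1041, 937 and 989 in smoke. The smoke libraries were closer together than the air libraries in both sexes, with a coefficient of variation of 4.65% against 16.6% in females and 5.09% against 16% in males, and the groups overlapped. Its log2 change was 0.25 ± 0.12 in females (limma adjusted p = 0.173) and 0.12 ± 0.12 in males (limma adjusted p = 0.548). The female change was 0.11 within replicates 1 and 2 and 0.40 within replicates 3 and 4, and it passed without female air 2 (0.35, limma adjusted p = 0.031).

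The gene rtv (FBgn0261277, chromosome X) encodes a small membrane protein of the Ly6 type. It had the smallest female change of the 10 genes, with 1062, 1353, 1283 and 1166 in female air against 1222, 1359.9, 1208 and 1225 in smoke. Male libraries had 1282, 1263, 1002 and 1233 in air against 1212, 1345, 1179 and 1270.3 in smoke. All groups overlapped. The log2 change was 0.05 ± 0.09 in females, with a 95% interval of -0.16 to 0.26, and 0.07 ± 0.09 in males, with an interval of -0.15 to 0.29. Exons of rtv share 109 bases with Lint-1 on the other strand, and exons of knk share 1712 bases with an antisense RNA gene that had no reads. The use of strand in counting is not given in the sources used here.

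Beside these, reb and exp encode proteins that act with the synthase in chitin deposition. Neither was called in either sex by limma, edgeR or DESeq2, and reb was higher in males at an unadjusted p under 0.05. The level of reb went from 1657 ± 276 in air to 2016 ± 330.2 in smoke in females, and from 1510.0 ± 315 to 1978 ± 353 in males. That of exp went from 1940.4 ± 597 to 2022 ± 50.01 in females, and from 2146 ± 384 to 2143 ± 711 in males. The gut chitin synthase gene Chs2 stayed at or under 12.8 and Cda9 at or under 3.97 in every library, so neither was tested.

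The luminal deacetylase genes verm and serp were the most abundant of the 10 genes, and their means were higher in smoke than in air in both sexes. Only the male change of verm passed the test with limma. They are neighbours on chromosome arm 3L in the same orientation (verm FBgn0261341, serp FBgn0260653). In females verm stood at 30122, 45223, 48022 and 45966 in air and at 55716, 54015, 75299 and 79471 in smoke. Male verm values were 41031, 36844, 47879.6 and 58853 in air and at 71191, 65062, 93147 and 93429 in smoke. In both sexes all smoke libraries lay above all air libraries.

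The male change of verm was 0.81 ± 0.19 on the log2 scale, with a 95% interval of 0.38 to 1.24, and passed the test (limma adjusted p = 0.0286). The female change was 0.65 ± 0.20, with an interval of 0.19 to 1.10, and missed the threshold (limma adjusted p = 0.0569). The difference between the sexes was -0.16 ± 0.28 (limma adjusted p = 0.874), so the sexes are not shown to differ. Within replicates 1 and 2 the change was 0.57 in females and 0.81 in males, and within replicates 3 and 4 it was 0.72 and 0.81. The male call was lost without male air 1 (0.0678), male air 2 (0.0717), male air 3 (0.0537), male smoke 1 (0.0642), male smoke 3 (0.0718) or male smoke 4 (0.0702), with log2 changes of 0.71 to 0.86 in these fits. In the authors' deposited table verm had an adjusted p of 0.00843 in females and 0.000414 in males.

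In females serp stood at 21446, 36351, 31749.7 and 35922 in air and at 41298, 41953, 52463 and 64008 in smoke, and these groups did not overlap. Male serp values were 31626, 28906, 32721 and 51325 in air and at 50519.6, 49397, 63686 and 70018 in smoke, where male air 4 lay above the lowest pair of smoke libraries. The log2 change was 0.68 ± 0.21 in females (limma adjusted p = 0.0599) and 0.71 ± 0.20 in males (limma adjusted p = 0.0539), and neither passed. The difference between the sexes was -0.04 ± 0.31, with a 95% interval of -0.69 to 0.62. Within replicates 1 and 2 the change was 0.58 in females and 0.72 in males, and within replicates 3 and 4 it was 0.78 and 0.70. The female change passed without female air 2 (0.0465) and the male change without male air 4 (0.0186). The authors' deposited table gave serp an adjusted p of 0.0114 in females and 0.00985 in males.

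The ratio of verm to serp stayed between 1.15 and 1.51 over the 16 libraries, while verm ran from 30122 to 93429 and serp from 21446 to 70018. Its group means were 1.36 ± 0.12 in female air, 1.33 ± 0.08 in female smoke, 1.30 ± 0.13 in male air and 1.38 ± 0.07 in male smoke. Among 8605 other genes, the one whose log2 values, centred within each sex, were most like those of verm over the 16 libraries was serp (Pearson r = 0.97, Spearman rho = 0.95), and the gene most like serp was verm. For the other members the closest gene was never a member, with r from 0.84 for rtv (CG14572) to 0.96 for obst-A (CG8420) and 0.97 for Cda5 (CG10672). An r of this size is therefore not particular to verm and serp. This comparison was added after the values were seen, and all genes were measured in the same smoke and air libraries. Together the pair took 0.295% to 0.454% of reads in female air libraries, 0.497% to 0.709% in female smoke, 0.383% to 0.592% in male air and 0.622% to 0.842% in male smoke.

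**Figure D3:**
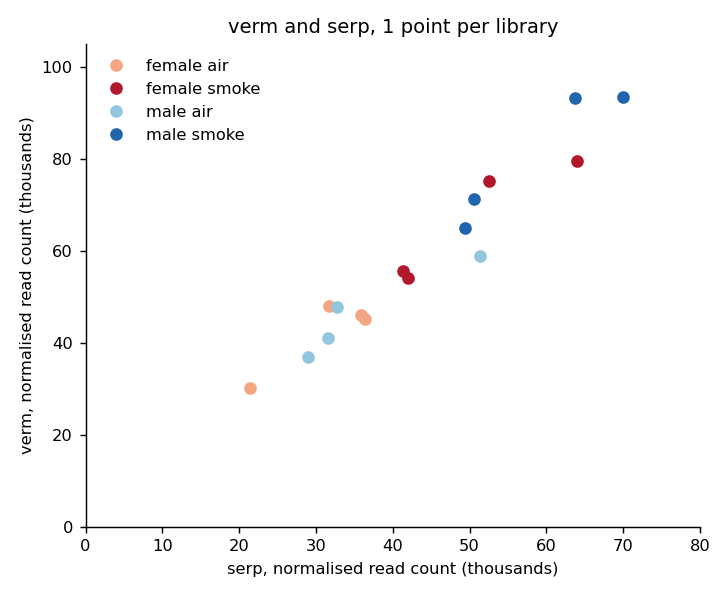
Normalised read counts of verm (vertical axis) and serp (horizontal axis), both axes starting at 0, 1 point per library, coloured by group. The points lie along a line, with the ratio of verm to serp between 1.15 and 1.51, and smoke libraries of each sex sit towards the upper right.

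Cda5 (FBgn0051973, arm 2L), a gene of the chitin deacetylase family, had the largest change of the 10 genes in each sex. In females it stood at 1089, 674, 1202 and 1030.4 in air and at 2334, 2254, 1743 and 2009 in smoke, so every smoke library was above every air library. Male Cda5 values were 1782, 1689, 1183 and 1597 in air and at 344, 343, 410.1 and 265 in smoke, so every smoke library was below every air library. In air the lowest male library was just under the highest female library, and in smoke every female library was far above every male one.

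On the log2 scale Cda5 rose by 1.08 ± 0.18 in females, with a 95% interval of 0.66 to 1.51 (limma adjusted p = 0.00669). It fell by 2.19 ± 0.17 in males, with an interval of -2.58 to -1.81 (limma adjusted p = 0.000311). The female minus male difference was 3.28 ± 0.26, with an interval of 2.72 to 3.84 (limma adjusted p = 7.78e-06). Within replicates 1 and 2 the change was 1.42 in females and -2.33 in males, and within replicates 3 and 4 it was 0.75 and -2.06. Without any 1 library the female change lay between 0.91 and 1.18, the male change between -2.32 and -2.08 and the difference between 3.10 and 3.41, and all these fits kept their calls. In the authors' deposited table the log2 fold changes of Cda5 were 1.02 in females (adjusted p = 1.36e-06) and -2.15 in males (adjusted p = 5.76e-31). Of 619 genes called in both sexes by limma, 62 had opposite signs.

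Cda4 (FBgn0052499, chromosome X), a related deacetylase gene, did not follow Cda5. Cda4 stood at 2188, 1148, 2452 and 1916 in female air and at 1836, 1887, 2723 and 1749.6 in female smoke. Male Cda4 values were 1304, 1139, 1617 and 1238 in air and at 1489, 1278, 1994 and 1159 in smoke. The groups overlapped in both sexes. Its log2 change was 0.12 ± 0.25 in females (limma adjusted p = 0.778) and 0.14 ± 0.18 in males (limma adjusted p = 0.639), with 95% intervals of -0.44 to 0.68 and -0.27 to 0.55. The ratio of Cda4 to Cda5 went from 1.90 ± 0.15 with air to 1.01 ± 0.37 with smoke in females, and from 0.887 ± 0.322 to 4.32 ± 0.47 in males. The ratio was 3.72 to 4.86 in male smoke libraries and 0.6745 to 1.37 in male air. These ratios are not corrected for transcript length, with 1934 bases in the longest transcript of Cda4 and 7266 in that of Cda5. They therefore show changes between groups and not which gene was higher. Per kb the mean of Cda4 was above that of Cda5 in all 4 groups, as at 685 against 215 in male air and 1059 against 287 in female smoke.

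**Figure D4:**
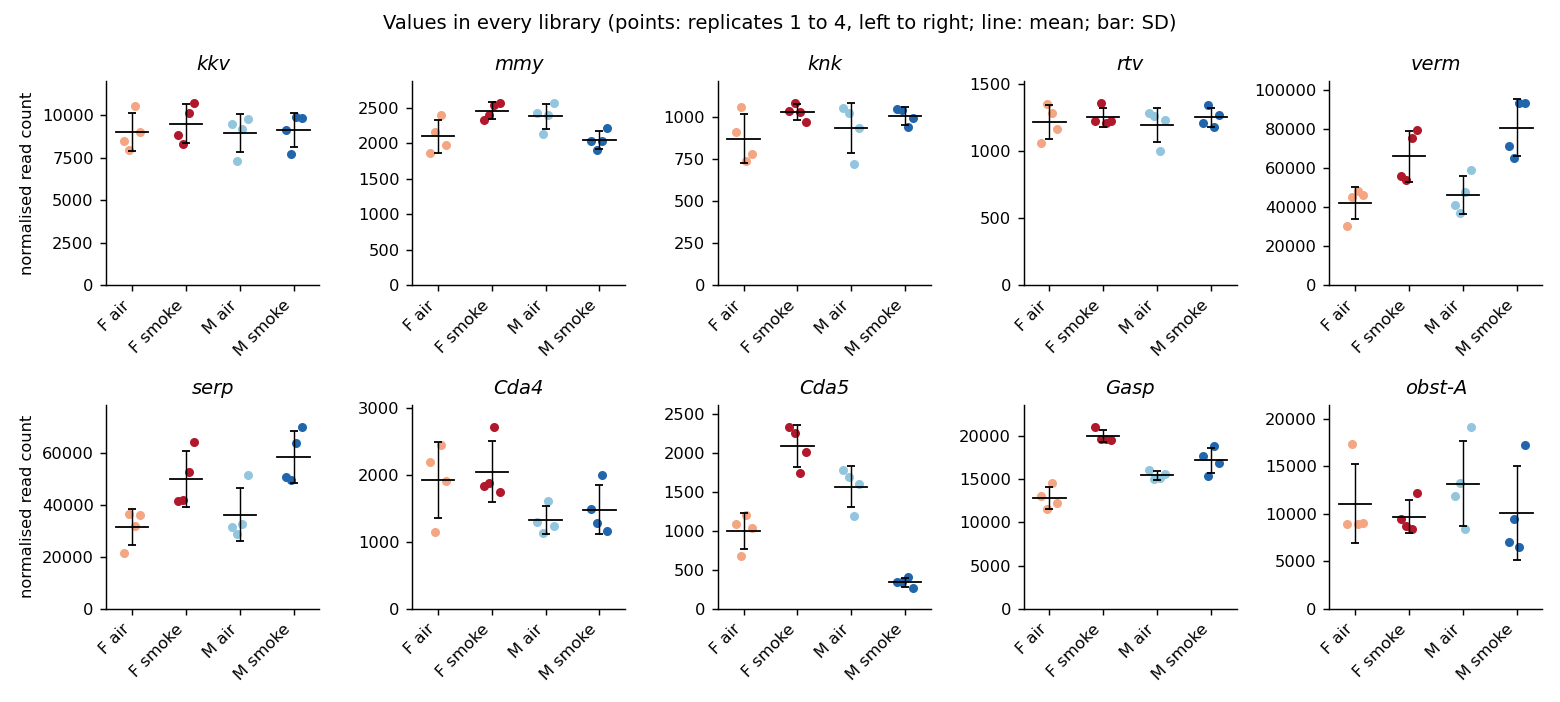
Normalised read count of each gene in every library (vertical axes start at 0), with replicates 1 to 4 from left to right in each group (F, female; M, male), the mean as a line and the SD as a bar. Cda5 separates smoke from air in opposite directions in the sexes, and Gasp separates them in females.

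Markers of other tissues also differed between groups. Of 4 posterior spiracle genes, 2 rose in females, Abd-B and ct, and none was called in males with limma or edgeR, while DESeq2 called 1 lower there. The homeotic gene Abd-B went from 3381 ± 449 in air to 5045 ± 313 in smoke in females, and stood at 4536 ± 763 and 3989.8 ± 425 in males, and its change differed between the sexes by 0.76 ± 0.17 (limma adjusted p = 0.0315). The summed level of the 4 genes was 414 to 509.6 CPM in female air, 498 to 626 in female smoke, 419 to 565 in male air and 397 to 475.1 in male smoke. Of 6 imaginal disc genes tested in females 4 fell, with summed levels of 48.3 to 110.2 CPM in air and 7.78 to 22.4 in smoke. None of the 5 tested in males was called, with 3.22 to 54.9 and 2.96 to 27.2 CPM. Salivary glue genes summed to 61.0 to 323 CPM with air and 3.43 to 12.2 with smoke in females, where 7 of 7 tested fell. In males glue genes summed to 11.8 to 7668 CPM in air and 4.03 to 35.7 in smoke, and none of 6 was called. The highest of these was 1 library, male air 3, where Sgs3 stood at 49459 against 49.1 to 174 in the other male air libraries. Male air 3 was also highest in the fat body genes, with Fbp1 at 99437 against 4855 to 13314 in the other male air libraries. It was kept in the main male tests. Muscle genes summed to 571 to 10110 CPM in female air, 1060 to 4794 in female smoke, 2034 to 9876 in male air and 394 to 2399 in male smoke, and limma called 3 of 9 lower in males and none in females. DESeq2 called 7 of the 9 lower in males and 1 in females, edgeR called none in either sex, and 9 of 9 were lower in males at an unadjusted p under 0.05. Of 7 hemocyte genes limma called 1 higher in females and none in males, where DESeq2 called 2 lower, and edgeR called none in either sex. None of 6 fat body genes or 3 midgut genes was called with limma or edgeR in either sex, while DESeq2 called 6 of 6 fat body genes lower in males and 1 midgut gene lower in females. Fat body genes summed to 811 to 5996 CPM in female air, 1108 to 5376 in female smoke, 906 to 32730 in male air and 201 to 1637 in male smoke. Hemocyte genes summed to 431 to 1479, 792 to 1278, 689 to 1414 and 261 to 640.2 CPM in the same order, and midgut genes to 1.71 to 269.7, 0.198 to 34.7, 8.06 to 26.4 and 0.695 to 76.0. The part of these tissues in the changes of Cda5, Gasp, verm and serp was not tested.

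Gasp (FBgn0026077, arm 3R) encodes a chitin-binding protein of the tracheal lumen. In females it stood at 13042, 11506, 14523 and 12229 in air and at 21053, 19611, 19652 and 19498 in smoke, so the lowest smoke library was well above the highest air library. Male Gasp values were 16074, 14964, 15107 and 15570.5 in air and at 17678, 15354, 18768 and 16855 in smoke, where 3 smoke libraries lay above all air libraries and 1 did not.

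The female change of Gasp was 0.64 ± 0.09 on the log2 scale, with a 95% interval of 0.44 to 0.85 (limma adjusted p = 0.00327), and lay between 0.59 and 0.70 without any 1 library. The male change was 0.15 ± 0.08 (limma adjusted p = 0.248). The difference between the sexes was 0.49 ± 0.11, with an interval of 0.25 to 0.73, and passed the test (limma adjusted p = 0.0316). That call passed without female air 3 (0.0117), male smoke 1 (0.0498) or male smoke 3 (0.022), and missed the threshold without any of the other 13 libraries (limma adjusted p 0.0525 to 0.0777). It also missed it when libraries were scaled to the same upper quartile (0.0718) or total (0.0687) or when no filter was used (0.0634). Within replicates 1 and 2 the difference was 0.64 and within replicates 3 and 4 it was 0.34. The female change was 0.73 within replicates 1 and 2 (limma adjusted p = 0.118) and 0.55 within replicates 3 and 4 (limma adjusted p = 0.0594), and passed in neither pair.

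The other chitin-binding gene, obst-A (FBgn0031097, chromosome X), was not called in either sex and in 3 of 4 groups varied more between libraries than the other 9 genes. It stood at 8924, 17287, 8901 and 9049 in female air and at 9413, 8675, 8382 and 12176 in female smoke. Male obst-A values were 11894, 13186, 8407 and 19153 in air and at 7073, 9413, 6503 and 17239 in smoke. The coefficient of variation was 37.7%, 17.9%, 34% and 49.2% in these groups, and all smoke ranges overlapped the air range. Its log2 change was -0.14 ± 0.23 in females and -0.44 ± 0.35 in males, with 95% intervals of -0.68 to 0.39 and -1.24 to 0.36.

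The 3 libraries highest in obst-A were also the 3 highest in Hr4, a nuclear receptor gene switched on by ecdysone. Hr4 stood at 3734 in female air 2, 2482 in male air 4 and 2365 in male smoke 4, and between 51.6 and 835 in the other 13 libraries. The ecdysone-induced receptor gene Eip78C stood at 1320.1, 1120.5 and 1061 in these 3 libraries and at 6.79 to 350.4 elsewhere, and Hr3 at 591, 408 and 642 against 1.27 to 185. The moulting chitinase gene Cht5 stood at 19624, 22974 and 22200.0 there and at 4387 to 13384 elsewhere. These genes were singled out after their values were seen. The part of this pattern in the spread of obst-A was not tested.

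**Figure D5:**
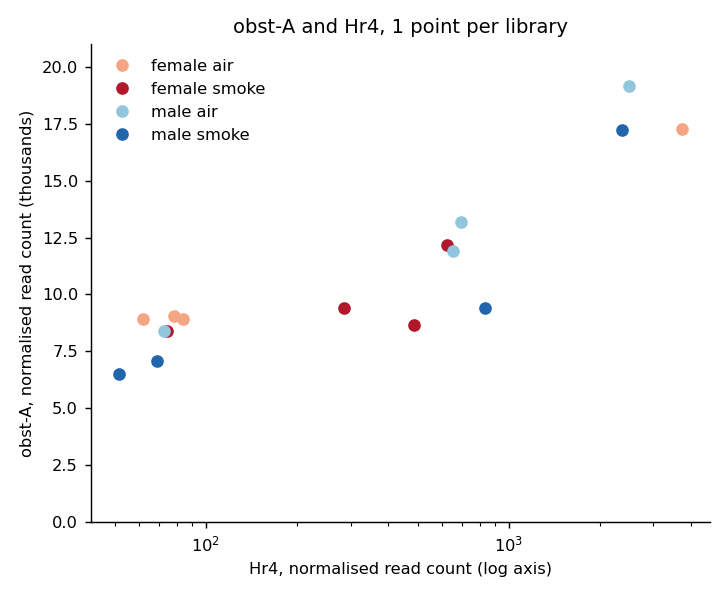
Normalised read count of obst-A (vertical axis) and Hr4 (horizontal log axis), 1 point per library, coloured by group. Female air 2, male air 4 and male smoke 4 lie apart, with Hr4 at 2365 or more and obst-A at 17239 or more, and smoke and air libraries mix along both axes.

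Without these 3 libraries, an alternative chosen after the data were seen, the change of obst-A was 0.09 in females and -0.54 in males, and neither passed. Cda5 kept both calls and its sex difference, at 0.91, -2.06 and 2.97 (limma adjusted p = 0.00258, 0.00652 and 4.6e-05). Gasp kept its female call at 0.59 (limma adjusted p = 0.00434), while its sex difference of 0.43 missed the threshold (limma adjusted p = 0.161). The changes of serp passed in both sexes (0.76 and 0.80, limma adjusted p = 0.0465 and 0.0376), while those of verm missed the threshold (0.69 and 0.86, limma adjusted p = 0.059 and 0.0619). In females only female air 2 was left out by this, and knk passed too (0.35, limma adjusted p = 0.031).

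Over the 13 ecdysone response genes tested, 4 rose and none fell in each sex. By unadjusted p, edgeR and DESeq2 none was lower either. Of all genes tested, 10.9% rose and 7.09% fell in females, and 8.89% and 4.64% in males. In each sex 9 of the 13 were not called. Log2 changes below 0 were Hr39 in females (-0.05), and Eip78C (-1.69), Hr4 (-0.88), Hr3 (-0.72) and Eip93F (-0.27) in males. All other changes in the list were positive. EcR, the ecdysone receptor gene, went from 5870.3 ± 577 in air to 9269 ± 974 in smoke in females (log2 change 0.66 ± 0.10, limma adjusted p = 0.00532), and from 6385 ± 510.0 to 9600.2 ± 796 in males (0.59 ± 0.09, limma adjusted p = 0.00571). Cyp18a1, whose enzyme inactivates ecdysone, went from 98.8 ± 78.1 in air to 514 ± 224 in smoke in males (2.602 ± 0.57, limma adjusted p = 0.0238), and stood at 175 ± 133 and 606 ± 377 in females, where it missed the threshold (limma adjusted p = 0.0873). The gene shd, whose enzyme makes the active hormone, went from 110.1 ± 45.01 to 377 ± 91.0 in females (1.83 ± 0.33, limma adjusted p = 0.00796) and stood at 226 ± 163 and 275 ± 78.9 in males, where it was not called.

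Among 9 tested genes of chitin turnover, 1 rose and 1 fell in females and 2 fell in males. The chitinase gene Cht6 went from 8544 ± 2811 in air to 15507 ± 1401 in smoke in females (0.91 ± 0.20, limma adjusted p = 0.0171). Male means were 10344 ± 3224 and 15537 ± 3993 (0.61 ± 0.26, limma adjusted p = 0.155). Cht11, at a far lower level, fell in both sexes, from 214 ± 20.2 to 153 ± 16.9 in females and from 197 ± 21.5 to 125 ± 17.1 in males (limma adjusted p = 0.0266 and 0.0196). The hexosaminidase gene Hexo2 fell in males, from 733 ± 215 to 386 ± 92.1 (limma adjusted p = 0.0402). Of 7 other obstructor genes, obst-B and obst-E reached the level needed for a test and neither was called by limma, edgeR or DESeq2, or at an unadjusted p under 0.05. Their levels were 3503 ± 491 and 2513 ± 1638 in female air, and the other 5 stayed at or under 11.5 in every library.

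Among transcription factor genes of the tracheal epithelium, trh rose in both sexes. It went from 9110.3 ± 1701 in air to 12894 ± 1580.2 in smoke in females (0.51 ± 0.14, limma adjusted p = 0.0433), and from 9842 ± 1641 to 15193 ± 1638 in males (0.63 ± 0.13, limma adjusted p = 0.0196). With edgeR its female call was lost. The gene grh, whose factor controls cuticle and barrier genes in the fly epidermis, fell in females from 3538 ± 412 to 2646 ± 185 (limma adjusted p = 0.0211) and stood at 2827 ± 269 and 2635 ± 189.9 in males. The gene vvl fell in females from 6559 ± 562 to 5028 ± 407 (limma adjusted p = 0.0235) and stood at 5697 ± 296 and 5669 ± 696 in males. The sex differences of grh and vvl did not pass the test (limma adjusted p = 0.289 and 0.23).

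The mean of the 10 genes, as log2 values centred within each sex, was followed most closely over the 16 libraries by Glut4EF (Pearson r = 0.91, Spearman rho = 0.90), CG9336 (0.89 and 0.86), Rab7 (0.88 and 0.89), CG5191 (0.87 and 0.86) and CG10413 (0.86 and 0.81), out of 8596 other genes. These values describe libraries that differ in depth and treatment, and the part of either in the correlations was not tested. The members followed their own mean unequally, with r from 0.10 for Cda4 and 0.22 for obst-A to 0.77 for Gasp and 0.84 for mmy.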

How the data were processed

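RNA sequencing libraries (NEBNext Ultra kit, single reads of 75 bp, NextSeq500, per the labels' protocols) came from 16 samples of isolated larval trachea. The submitters' processing notes name STAR 2.6.0c and DESeq2 1.22.2 without their roles, and a human genome build, while the identifiers are FlyBase's, so no coordinates are given. The sources used here do not give the counting tool, strand, annotation or filters. The authors deposited normalised signal per gene, in 1 table per sex, which from the values are reads scaled by 1 size factor for each library. Per the file headers, a second deposited table for each sex holds the authors' log2 fold changes with errors, a test score (statistic) and p-values. All values (100%) were within 0.01 read of a whole multiple, so reads were recovered. No value column lacked a sample. Replicates of a group differed by more than sampling noise in all 24 pairs (chi-square per degree of freedom 23.9 to 318).

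Deposited values were tested with limma 3.58.1 (R 4.3.3) with a mean-variance trend, as log2(value + 1), two-sided, over genes at 10 or more in at least 4 of 8 libraries of a sex (8877 genes in females, 8705 in males). A fold change on this scale understates that of low genes. The sex difference used 1 model over 16 libraries (8606 genes). Benjamini-Hochberg adjustment ran over all genes tested, with a threshold of 0.05. Alternatives were other pseudocounts, filters and scalings, edgeR 4.0.16 and DESeq2 1.42.0 on recovered reads, a replicate block, a term for the naming style of the columns, each of its pairs alone and each library left out. The limma fit was tested on simulated counts. In each simulation 100 genes were changed by 1 and 100 others by 2 on the log2 scale. Of those changed by 1, the fit recovered 96% in females, 100% in males and 65% for the sex difference. Of those changed by 2 it recovered 100% in each. Of all simulated calls, with both sets in 1 run, 5.31%, 5.66% and 6.78% were false in the same order. Every simulated gene had the same dispersion (spread beyond counting noise) of 0.03, and replicate pairs did not differ. These shares therefore do not give the recovery for more variable genes such as obst-A. Lengths, exon overlaps and chromosome arms came from Ensembl BDGP6.54, matched for 17253 of 17559 identifiers. The members and lists were chosen with earlier results of these data known. All members were named, with up to 3 called genes per list by smallest adjusted p, and the 5 genes most like the members' mean. Gfat1, nst, reb, exp, obst-B, obst-E, Hr3, Hr4, Eip78C and Cht5 were named outside this rule, after their values were seen. Some listed marker genes are not analysed here.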

Additional observations from a re-analysis of the deposited data

Results flagged for a closer look

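The change of 2 genes with smoke differed between the sexes. The female minus male log2 change of Cda5 was 3.28 (limma adjusted p = 7.78e-06), with 4 of 4 female smoke libraries above and 4 of 4 male smoke libraries below all air libraries of their sex. That of Gasp was 0.49 (limma adjusted p = 0.0316), and it missed the threshold in 19 of 29 alternative settings, including 13 of the 16 fits without 1 library.

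In 6 of the 40 sets of 4 libraries (10 genes in 4 groups), 1 library stood far from the other 3 by Dixon's ratio at 95%, where chance flags about 1 in 20 sets. These were obst-A in female air 2 at 17287, verm in female air 1 at 30122, serp in male air 4 at 51325, Cda4 in female smoke 3 at 2723, Gasp in female smoke 1 at 21053 and rtv in female smoke 2 at 1359.9. For rtv, Gasp and Cda4 the library was the highest of its group, as for obst-A and serp, and for verm it was the lowest.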

How the results depend on the processing

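Counts of called members out of 10 were 2 for each comparison. In females the count was 4 with DESeq2, with the replicate block, with a term for the naming style and without the 3 libraries highest in Hr4, 0 within replicates 1 and 2 (2 at an unadjusted p under 0.05), and 2 to 4 when 1 library was left out. Within replicates 3 and 4 verm and Cda5 passed in females (limma adjusted p = 0.0422 and 0.0446), and Gasp did not. In males it was 4 with DESeq2, 5 with the replicate block, 4 with the naming-style term, 1 within replicates 1 and 2, 0 within replicates 3 and 4 (2 unadjusted), and 1 to 3 when 1 library was left out. For the sex difference it was 3 with DESeq2, the replicate block and the naming-style term, with mmy gained (0.00491, 0.0172 and 0.0145), 1 without a filter, with the same upper quartile, within replicates 1 and 2 and without the 3 libraries highest in Hr4, 0 within replicates 3 and 4 (2 unadjusted), and 1 to 3 when 1 library was left out. The members gained with DESeq2, the replicate block and the naming-style term were verm and serp in females, and mmy and serp in males, with obst-A under the male block (0.0282). No called member changed sign under any setting run. The replicate numbers did not pair the libraries in every case (correlation of same-numbered smoke and air libraries -0.10 to 0.42 in females and 0.04 to 0.46 in males, and 12 of 16 libraries correlated best with their own number). Over all genes the block moved the calls from 1599 to 2504 in females, 1178 to 2816 in males and 187 to 817 for the sex difference. These counts were 2514, 1967 and 436 with the naming-style term, 2232, 1971 and 340 with DESeq2, 12, 146 and 61 within replicates 1 and 2, 813, 9 and 1 within replicates 3 and 4, and 994 to 1998, 478 to 1156 and 124 to 185 when 1 library was left out. Without the 3 libraries highest in Hr4 the male count was 349. Several uncalled changes changed sign in some setting. In females these were rtv (-0.07 with the same total), obst-A (0.17 within replicates 3 and 4, 0.09 without female air 2), Cda4 (-0.11 without female air 2) and kkv (-0.03 at the lowest). In males kkv, Cda4 and rtv reached -0.06, -0.01 and -0.01. The uncalled sex differences of kkv, rtv, serp and Cda4 also changed sign. Scaling to the same total moved the median log2 change of all genes in females from -0.02 to -0.13, and Cda5 and Gasp then stood at 0.97 and 0.53. Depth limits Cda5 most, with 226 to 403 reads per male smoke library. The cause of these changes was not tested. Fits within pairs also had fewer libraries, which cannot be told apart from a difference between the pairs.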
